A study of Homo sapiens with 2 samples.

Results

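The genes examined here mark intestinal identity and epithelial differentiation. They were chosen by name and not by a rule on their values, but with earlier results of these data known. They comprise the transcription factors CDX1 and CDX2, the brush border gene VIL1 and the mucin gene MUC2. The others are the keratin genes KRT8, KRT18, KRT19 and KRT20, and the surface genes CDH1 and EPCAM. All 10 had at least 1 probe on the arrays, out of 21614 genes with a named probe, and they were represented by 17 probes in 26 spots. The cells were HCT116, an established line from a human colon cancer that the study describes as poorly differentiated. The mock cells carried the pEB-mock vector, and the HOXA5 short cells carried the pEB vector with HOXA5 short RNA, a splice form of HOXA5 without exon 1. Both were stable transfectants kept in blasticidin for 2 weeks, and the sources used here do not say whether they were clones or pools. Total RNA from each was hybridized to 1 array, so there was no replicate and no test between the groups, and each difference below describes these 2 arrays alone.

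In the intestine, CDX1 and CDX2 are homeobox transcription factors that hold the intestinal program in epithelial cells. Cells leaving the crypt become absorptive cells with a brush border, in which villin (VIL1) bundles actin, or goblet cells, which secrete the gel-forming mucin MUC2. KRT8, KRT18 and KRT19 form the intermediate filaments of simple epithelia, and KRT20 is added in differentiated cells of the upper crypt and surface. E-cadherin (CDH1) joins neighboring epithelial cells, and EPCAM is a surface adhesion protein found on most simple epithelia.

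The processed signal is the brightness of a spot after background correction by the scanner software. For comparison it was converted to log2 and each array was reduced by its 75th percentile, which was 35.6 for mock and 44.0 for HOXA5 short. The HOXA5 short array was thus brighter by 0.30 on the log2 scale before scaling. HOXA5 was the check of the labels. Its single probe (NM_019102) gave a processed signal of 39.4 (error 4.32) in mock cells and 346 (error 34.6) in HOXA5 short cells, which is 2.83 as a scaled log2 difference. The probe was 7.11-fold brighter in the array labeled HOXA5 short, which carries the label of HOXA5 short RNA overexpression. The probe is annotated to the coding transcript, whose level the study reports as unchanged by qPCR in these cells. Which HOXA5 transcripts the probe reads cannot be told, since the files hold no probe sequences. Error here is that of the software for 1 spot. The spread of single spots was measured from probes printed in 10 spots, as the SD of the log2 difference between the arrays. It was 0.23 for signals above 200, 0.27 from 50 to 200, 0.34 from 15 to 50, 0.63 from 5 to 15 and 0.53 below 5, and it holds no spread between cultures.

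Of the 10 genes, 8 had a probe well above background on both arrays, and none of these 8 differed 2-fold. In the whole comparison, 108 of 11994 genes (0.9%) differed 2-fold in either direction, 0.642% higher and 0.258% lower. At 1.5-fold, where 4.38% of all genes differed, none of the 8 did either. The 8 genes ran from -0.20 for MUC2 to 0.28 for CDX1 on the log2 scale. Of them, 4 lay above 0, where 45.4% of all genes did. Their median was 0.01, against -0.02 over all genes compared. The other two, VIL1 and KRT20, did not rise well above background on either array, which is called below detection here. No probe of the 10 genes was well above background on 1 array only. Of the 17 probes, 11 were well above background on both arrays (across all named probes, 51%), and 6 on neither. In these bulk samples, fewer cells that express a gene and less RNA per cell cannot be told apart.

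**Figure D1:**
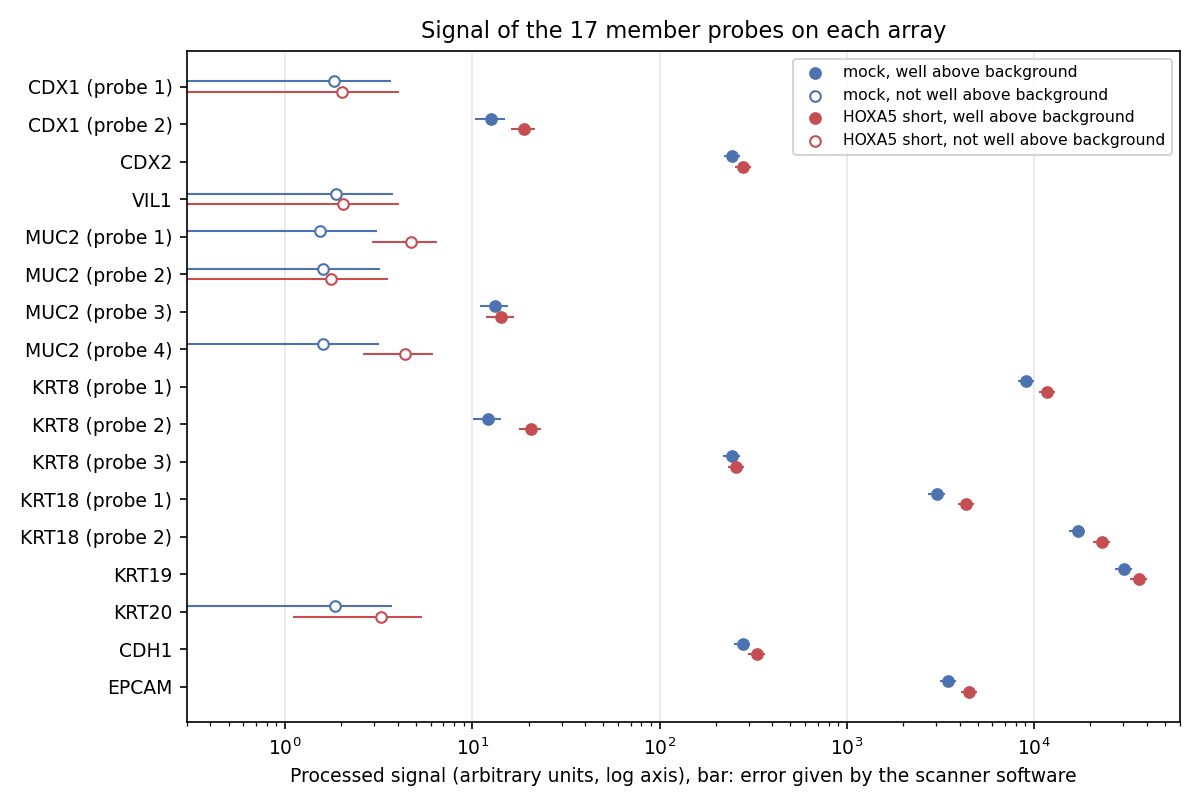
Processed signal of each probe of the 10 genes on the mock and the HOXA5 short array (log axis, arbitrary units), with the error given by the scanner software; open points are not well above background, and a bar that reaches the left edge has an error about as large as the signal. The 6 probes not well above background lie between 1.55 and 4.68, and levels of different probes are not comparable with each other.

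CDX2 is the main regulator of intestinal identity in the adult gut. Its probe (NM_001265, chromosome 13) gave 244 (error 24.5) in mock cells and 280.5 (error 28.1) in HOXA5 short cells. The scaled log2 difference was -0.10, within the 0.23 of single spots of this brightness. CDX1, the related factor of the crypt epithelium, had 2 probes for NM_001804 (chromosome 5) that differed in detection. The detected probe gave 12.6 (error 2.29) in mock cells and 18.9 (error 2.78) in HOXA5 short cells. Its log2 difference of 0.28 (1.21-fold) was the highest among the 8 genes and lay within the spread of 0.34. It was -0.01 with normexp background correction, so its direction depended on the background correction. The other probe read 1.84 (error 1.84) and 2.02 (error 2.02), below detection on both arrays.

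Markers of differentiated cells were at or near the background. The villin probe (NM_007127, chromosome 2) gave 1.88 (error 1.89) in mock cells and 2.04 (error 2.04) in HOXA5 short cells. The KRT20 probe (NM_019010, chromosome 17) gave 1.85 (error 1.86) and 3.25 (error 2.14). Neither probe allows a fold change, since both arrays fell under the level that the software accepts as signal. The lowest signals it accepted were 7.74 for mock and 8.0 for HOXA5 short. MUC2 had 4 probes, all for NM_002457 (chromosome 11), and 1 was detected. The detected probe gave 13.3 (error 2.21) in mock cells and 14.2 (error 2.42) in HOXA5 short cells, which is -0.20 as a scaled log2 difference within a spread of 0.63. The other three read 1.55, 1.60 and 1.59 on the mock array and 4.68, 1.76 and 4.37 on the HOXA5 short array. All 3 were thus brighter on the HOXA5 short array before scaling, and below detection on both arrays. Averaging all 4 probes without a filter turned the MUC2 value to 0.52.

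KRT8, KRT18 and KRT19, unlike KRT20, were detected with every probe. KRT19, a type I keratin, had 1 probe (NM_002276, chromosome 17), with 30236.5 (error 3024) in mock cells and 36346 (error 3635) in HOXA5 short cells. The log2 difference was -0.04, and it changed sign with scaling to the median, scaling to the spike-ins, normexp and local subtraction. KRT18, the type I partner of KRT8, had 2 probes for NM_000224 (chromosome 12). The dimmer gave 3029 (error 303) and 4356 (error 436), and the brighter 17079.8 (error 1708) and 23083 (error 2308), on the mock and the HOXA5 short array. Their log2 differences were 0.22 and 0.13, each within the 0.23 of single spots. Both probes lay on the same side, and the mean of 0.18 (1.13-fold) stayed above 0 in all 12 settings, including scaling to the spike-ins, which moved every gene up.

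KRT8, a type II keratin, had 3 probes (chromosome 12), which disagreed. The brightest, for NM_002273, gave 9087 (error 909) in mock cells and 11740.4 (error 1174) in HOXA5 short cells, which is 0.07 as a scaled log2 difference. The second probe for NM_002273 gave 12.2 (error 2.09) and 20.5 (error 2.75), which is 0.45 as a scaled log2 difference that exceeded the spread of 0.34. That spread is for signals from 15 to 50, while the mock signal lay in the range from 5 to 15, where the spread was 0.63. Whether this probe exceeded the spread thus depends on the range taken. The probe for the non-coding transcript NR_045962 gave 244 (error 24.4) and 257 (error 25.8), which is -0.23 as a scaled log2 difference. The difference between the arrays was therefore highest for the dimmest probe and lowest for the transcript variant. The mean over the 3 probes was 0.10. With dim probes left out it was -0.08, so KRT8 had no settled direction. The dim KRT8 probe was 1 of the 11 detected probes, and the other 10 all lay within the spread of single spots.

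**Figure D2:**
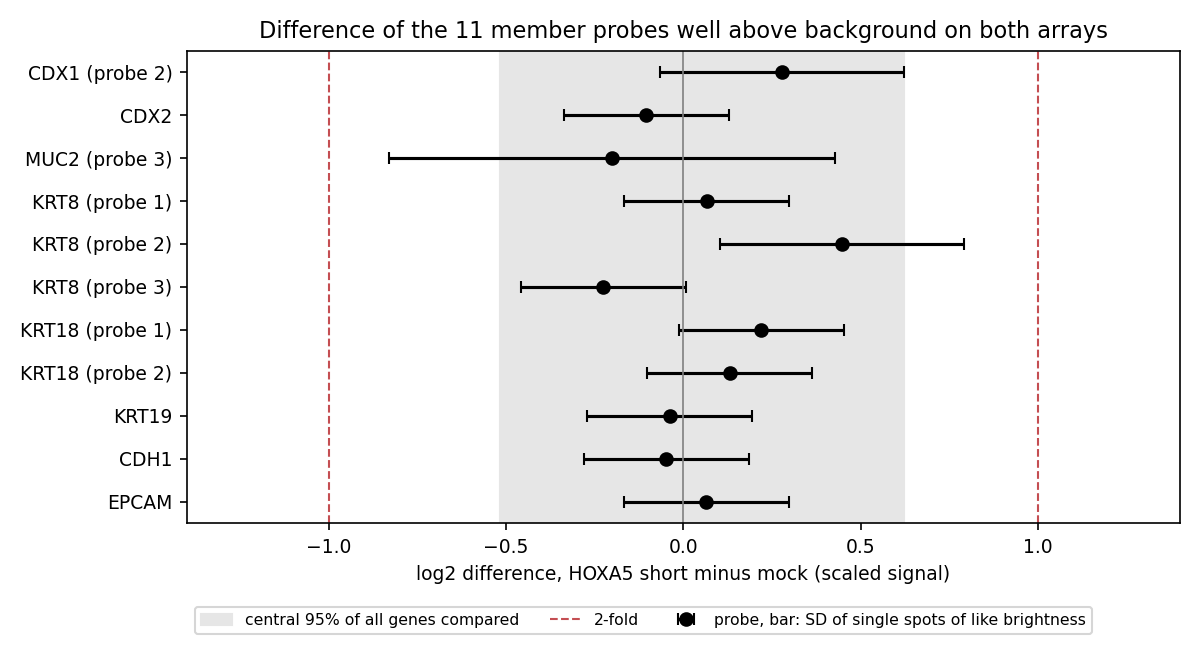
Scaled log2 difference (HOXA5 short minus mock) of the 11 probes detected on both arrays, with the SD of single spots of like brightness as bars, the central 95% of all genes compared (-0.52 to 0.62) shaded and 2-fold dashed. All 11 points lie inside the shaded range, 6 above 0 and 5 below.

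KRT8 and KRT18 have many near-identical pseudogene copies, which can share a probe's target. RefSeq lists 52 pseudogene records named for KRT8, 68 for KRT18 and 5 for KRT19. How much of each keratin signal comes from such copies cannot be told from these files, which hold no probe sequences. The 3 genes are therefore uncertain in this respect.

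CDH1 was the only one of the 10 genes whose probe (NM_004360, chromosome 16) was printed in 10 spots, which gave it an error of its own. On the mock array the spots read 248 at the lowest, 278 at the median and 309 at the highest, with a mean of 279 ± 18.8 (SD, n = 10 spots). On the HOXA5 short array they read 293 at the lowest, 336 at the median and 363 at the highest, with a mean of 333 ± 21.0 (SD, n = 10 spots). Before scaling, all 10 spots were brighter on the HOXA5 short array, and the ranges of the arrays overlapped. After scaling, the log2 difference was -0.05 ± 0.13 (SD, n = 10 spots; SE 0.04). Single spots ran from -0.26 to 0.14, with 6 below 0 and 4 above. The 10 spots are copies on the same pair of arrays and not replicates of the cells. The mean changed sign with scaling to the median, scaling to the spike-ins and normexp.

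**Figure D3:**
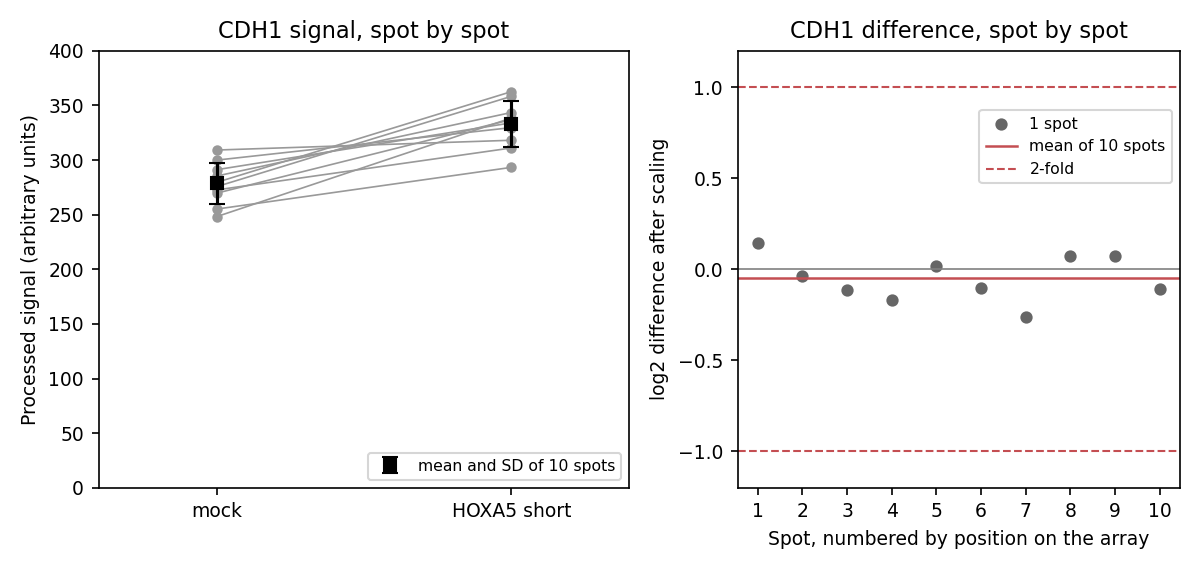
CDH1 in its 10 spots: processed signal of each spot on both arrays, joined by lines, with mean and SD (left), and scaled log2 difference of each spot (right), with the mean of -0.05 in red and 2-fold dashed. Spots differ from each other by more than their mean differs from 0.

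EPCAM had 1 probe (NM_002354, chromosome 2). It gave 3492 (error 349) in mock cells and 4509.6 (error 451) in HOXA5 short cells. The log2 difference was 0.06 (1.05-fold), within the spread of 0.23, and stayed above 0 in all 12 settings. EPCAM and KRT18 were the only pair among the 8 genes with 1 sign throughout these settings, and both differences were smaller than the spread of single spots. Several settings could not change that sign. Scaling to the median or the spike-ins only raised the values. The filter settings and removal of uneven zones left both genes as they were, and so did probe choice for EPCAM. The shared sign therefore does not establish a direction.

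Position on the array was examined because some zones of the grid were uneven between these arrays. A spot was placed in an uneven zone where at least 10 well-measured neighbors lay within 4 rows and 4 columns and at least 10% of them differed 2-fold. None of the 26 spots of the 10 genes lay in such a zone, and none had a neighbor that differed 2-fold. The detected CDX1 probe lay among spots that were lower on the HOXA5 short array, with a mean of -0.14, and it was 0.42 above them. EPCAM was 0.16 above its neighbors, which had a mean of -0.09. For CDX2 the value relative to its neighbors was -0.12, and for CDH1 -0.02.

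The direction of 4 of the 8 genes (CDX2, MUC2, KRT19 and CDH1) changed with a scaling that moves all genes alike, and the other 4 lay above 0 under each scaling. With scaling to the median of each array, all genes rose by 0.10 and 6 of the 8 genes lay above 0, against 4 in the scaling used here. With scaling to the RNA spike-ins of the labeling kit, all genes rose by 0.47, all 8 lay above 0, and none reached 2-fold. Relative to all genes, the median of the 8 was 0.04 higher under either scaling and under the one used here.

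**Figure D4:**
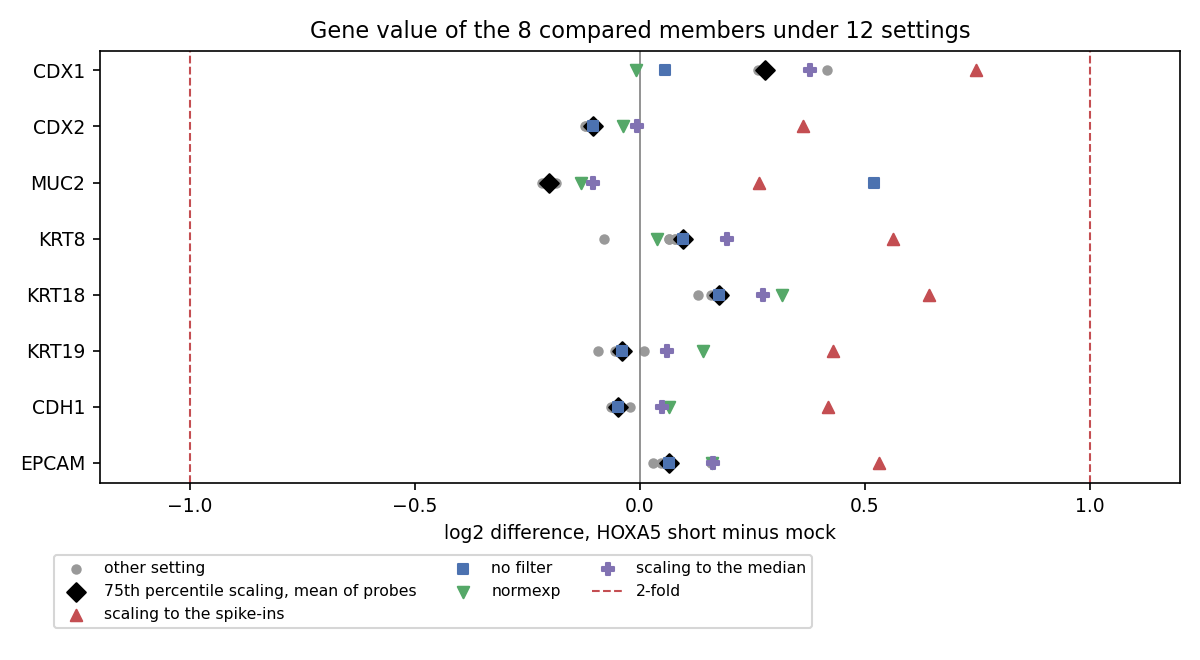
Log2 difference (HOXA5 short minus mock) of the 8 compared genes in 12 settings of scaling, background correction, filter, probe choice and position, with 2-fold dashed. No gene reaches 2-fold in any setting; scaling to the spike-ins moves every gene up, and MUC2 moves most without a filter.

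Other genes of the same programs were taken from 11 lists, of 200 genes in all and with some of the 10 genes among them. Of these, 196 had a named probe and 102 could be compared. The median over the 102 genes was -0.02, the same as over all genes. None was 2-fold higher (with scaling to the spike-ins, 1 intestinal transcription factor, 2 mucin or goblet cell genes and 1 stratified keratin were) and 2 were 2-fold lower, JUP and CLDN4, where 0.258% of all genes compared were 2-fold lower.

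Among intestinal transcription factors, 13 of 26 were compared, with a median of 0.03. The range ran from SOX9, a factor of crypt progenitors (-0.25), to NEUROG3, which starts the enteroendocrine lineage (0.56). HNF4A, ATOH1 and SPDEF were below detection on both arrays. Of brush border and enterocyte genes, 9 of 31 were compared (median 0.03). These ran from USH1C (-0.18), a scaffold between microvilli, to CEACAM1 (0.45), an adhesion molecule. The enterocyte genes ALPI, SI, FABP1 and SLC26A3 were below detection on both arrays, like VIL1.

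Of goblet cell and mucin genes, 6 of 22 were compared (median -0.07), from FCGBP, a component of mucus (-0.43), to MUC6 (0.86). The MUC6 value rested on 1 of 2 probes, with signals of 8.64 in mock and 19.4 in HOXA5 short cells. Single spots of that brightness had a spread of 0.63. TFF3, CLCA1, AGR2 and SPINK4 were below detection on both arrays. Of enteroendocrine and Paneth cell genes, CCK alone could be compared (0.06), and 11 of 12 were below detection on both arrays, among them CHGA and DEFA5. Of intestinal stem cell genes, 7 of 12 were compared (median 0.07), from BMI1 (-0.24) to EPHB2 (0.26), while LGR5, OLFM4, ASCL2 and SMOC2 were below detection. The probes of BMI1 (-0.63 and 0.16) and of EPHB2 (3 probes, from -0.10 to 0.75) disagreed in sign. Over all genes with a named probe, 11994 of 21614 were compared. The share was near that for the transcription factors and the stem cell genes. It was smaller for the brush border, goblet cell, enteroendocrine and Paneth cell lists, where both arrays gave low signal for most genes.

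Of simple epithelial keratins, 6 of 7 were compared (median 0.13), from KRT80 (-0.38) to KRT7 (0.21), and KRT20 was the one not detected. Of stratified epithelial keratins, 3 of 11 were compared (median -0.02). KRT6B had a value of 0.87, from signals of 16.3 in mock and 36.8 in HOXA5 short cells, and KRT15 a value of -0.12. KRT1, KRT4, KRT5 and KRT14 were below detection on both arrays. KRT6B has a near-identical paralog, KRT6A, so its probe is uncertain. The KRT6A probe was detected on the mock array only and lay on the other side, at least 1.52-fold lower in HOXA5 short cells (10.3 against 8.36). KRT13 was also detected on the mock array only, with signals of 7.75 and 8.41 before scaling and a bound of at least 1.14-fold lower in HOXA5 short cells after it.

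Junction genes were detected on both arrays more fully than the markers of mature cells. Of adherens junction and desmosome genes, 16 of 19 were compared (median -0.07), and 13 lay below 0, where 54.6% of all genes did. Of tight junction and polarity genes, 21 of 22 were compared (median -0.07), and 14 lay below 0. With scaling to the median, which raised all genes alike, the numbers below 0 fell to 6 and 9, and both medians turned to 0.03. The median over all genes went from -0.02 to 0.08, so both list medians lay below it under either scaling. CTNNA1, the alpha-catenin that links cadherins to actin, was highest in the former list (0.23, with probes at -0.08 and 0.55), and MARVELD3 in the latter (0.29).

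JUP, the plakoglobin of desmosomes, gave 1818 (error 182) in mock cells and 969 (error 96.9) in HOXA5 short cells, which is -1.21 as a scaled log2 difference. CLDN4, a claudin of tight junctions, gave 7457 (error 746) and 4302 (error 430.2), which is -1.10 as a scaled log2 difference. Both rested on 1 spot, and both spots lay in uneven zones. Around JUP, 7 of 16 well-measured neighbors differed 2-fold and the neighbors had a mean of -0.67. Around CLDN4 it was 7 of 18, with a mean of -0.58. Relative to the neighbors, JUP was at -0.54 and CLDN4 at -0.52, so neither was 2-fold lower. Neither was with normexp or with scaling to the spike-ins, and CLDN4 was not with scaling to the median. Leaving out the spots in uneven zones removed JUP and CLDN4 themselves, so that setting cannot show whether they differed. Of the genes left in the lists, none was 2-fold lower (0 of 15 and 0 of 20). The part of position in these values was not tested further.

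The probes of OCLN, the tight junction protein occludin, disagreed. The probe detected on both arrays gave -0.23, and the probe for NM_002538 was detected on the HOXA5 short array only, at 24.8 against 6.17, which gives a signal at least 2.60-fold higher there. Among named probes detected on 1 array only, 8.37% had a bound of at least 2-fold.

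Of genes for the epithelial surface and splicing, 17 of 19 were compared (median -0.02), from ESRP1, an epithelial splicing factor (-0.13), to OVOL2, a repressor of the mesenchymal state (0.43). TSPAN8, a tetraspanin, was below detection on both arrays. Of mesenchymal genes, 3 of 16 were compared, from ITGA5 (-0.25) to SNAI1 (0.03), and 10 were below detection on both arrays, among them CDH2, FN1, ZEB2 and SNAI2. The remaining 3, VIM, ZEB1 and SPARC, were detected on the HOXA5 short array only, with bounds under 2-fold for ZEB1 and SPARC and no bound above 1 for VIM. Their signals before scaling were low, at 9.12 against 7.28 in mock cells for VIM, 10.4 against 8.36 for ZEB1 and 10.5 against 4.87 for SPARC. Over all probes, 37.5% were well above background on the HOXA5 short array and 36.4% on the mock array.

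**Figure D5:**
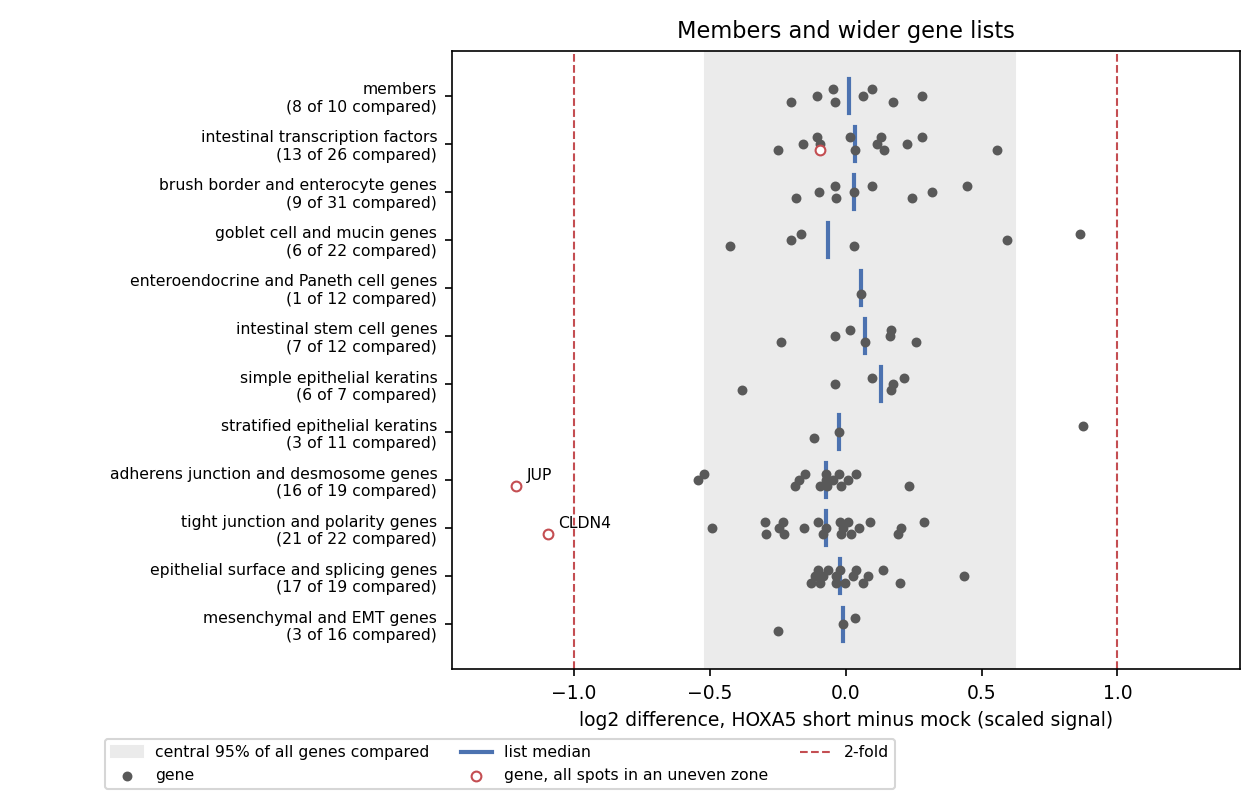
Log2 difference (HOXA5 short minus mock) of each compared gene in the 10 genes examined (top, labeled members) and in 11 wider lists, with list medians as blue bars, the central 95% of all genes shaded and 2-fold dashed. JUP and CLDN4 are the only listed genes past 2-fold, and both are drawn open because their spots lay in uneven zones.

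The label of a colon epithelial line was checked against its defining markers. CDX2, KRT8, KRT18, KRT19, CDH1 and EPCAM were well above background on both arrays, while VIL1 and KRT20 were not and MUC2 was with 1 of its 4 probes. Of markers for cells that a culture should not hold, 1 of 7 for fibroblasts (COL1A1, 0.13) and 1 of 6 for leukocytes (CD68, 0.05) were well above background on both arrays. CD14 was detected on the HOXA5 short array only, at 9.69 against 7.67 before scaling. After scaling its bound was at least 1.01-fold higher. No endothelial marker of 5 was detected.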

How the data were processed

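Gene expression was measured in 2 samples of HCT116 cells, 1 mock and 1 HOXA5 short, grouped by the genotype label, since the treatment text describes the HOXA5 short vector for both. Total RNA (400 ng) was labeled with Cy3 and measured on Agilent SurePrint G3 arrays, which shared 1 slide and 1 scan. Per the file headers, the deposited scanner files hold intensity values made with Feature Extraction 11.5.1.1, as processed signals with errors and flags. Each array held 58717 spots that were not controls, for 50599 probes, and none was saturated. The authors also deposited a log2 table of 19461 probes. Its columns are mirror images (medians 0.01 for mock and -0.01 for HOXA5 short), so only their difference carries information. The difference matched the scanner values, while its scaling is not stated. It was used as an alternative.

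Processed signals were converted to log2, outlier spots were left out, spots of a probe were averaged, and the 75th percentile over non-control probes was subtracted. Only probes well above background on both arrays were compared, 17938 in all. A gene value is the mean over its compared probes. Of all probes, 30004 (59.3%) matched a RefSeq gene record of GRCh38.p14 by accession without version. The array was annotated on hg19, so no coordinates are given. The mark for a difference was 2-fold. A probe detected on 1 array was given a bound against the other array, taking there the higher of the probe's own value and the lowest signal accepted as above background. Precision is limited by the number of arrays.

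The 10 genes, the 11 wider lists and all rules were chosen with earlier results of these data known. Named from each wider list were the highest and the lowest gene, every gene past 2-fold, every bound of at least 2-fold and up to 4 genes below detection. JUP, CLDN4 and OCLN are named by this rule. VIM, ZEB1, SPARC, KRT6A, KRT13 and the KRT18P55 probe, and the cell type markers given by name, were named after their values were seen. Alternatives were 11 settings of scaling, background, table, filter, probe choice and position, and thresholds of 1.5-fold and 3-fold. Scripts were tested on simulated data. Python 3.11.15, numpy 2.4.6, pandas 2.3.3 and limma 3.58.1 (normexp, offset 50) were used.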

Additional observations from a re-analysis of the deposited data

Results flagged for a closer look

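A signal appeared in a probe outside the 10 genes, that of the KRT18 pseudogene KRT18P55 (NR_028334, chromosome 17). It gave a processed signal of 1842 (error 184) in mock cells and 4801 (error 480.1) in HOXA5 short cells, which is 1.08 as a scaled log2 difference (2.11-fold higher), where 0.642% of all genes compared were 2-fold higher. The KRT18 probes gave 0.22 and 0.13. The KRT18P55 value exceeded the 0.23 of single spots, rested on 1 spot, and reached 2-fold in 11 of 12 settings. The exception was subtraction of the local mean, which gave 0.79: its 33 well-measured neighbors had a mean of 0.29, and 2 of them differed 2-fold. Several of the 11 settings could not take the KRT18P55 value below 2-fold. The filter settings, probe choice and removal of uneven zones left it as it was. Scaling to the median or the spike-ins only raised it. The part of position was not tested further. The KRT19P2 probe, also well above background on both arrays, gave 0.16, and the KRT8P41 probe was below detection on both.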

How the results depend on the processing

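None of the 8 compared genes was 2-fold different in any of the 11 alternative settings or at the 1.5-fold and 3-fold thresholds, and no bound arose for any of them. A gene value is called moved here when it changed by at least the SD of single spots of its brightness. Medians of lists and counts of genes past 2-fold have no brightness of their own but were labeled too, and a count that changed was called moved. Scaling to the spike-ins moved values by construction, to 0.75 for CDX1, 0.36 for CDX2, 0.56 for KRT8, 0.64 for KRT18, 0.43 for KRT19, 0.42 for CDH1 and 0.53 for EPCAM, and the median of all 8 genes, MUC2 (0.27) included, to 0.48. MUC2 moved to 0.52 without a filter, where 3 probes below detection enter. No other value of the 8 genes moved. Across the wider lists, HOXA5, JUP, CLDN4 and the keratin pseudogenes, 36 results moved and 373 did not. These results include list medians and counts, and no gene value past 2-fold changed sign. HOXA5 ran from 1.91 to 3.30. Over all 11994 genes compared, 77 were 2-fold higher and 31 lower. Also of 11994 genes, the counts were 108 and 20 with scaling to the median and 400 and 8 with the spike-ins. They were 37 and 8 with normexp and 47 and 18 after local subtraction, of 11994 again. Other settings held other numbers of genes. The counts were 446 and 564 of 21613 without a filter and 216 and 108 of 12577 in the log2 table of the authors. They were 35 and 14 of 6769 above the median signal and 48 and 20 of 11764 without uneven zones. Apart from the spike-ins, the cause of these shifts in counts was not tested. CDX1 and MUC2 have no value above the median signal, and JUP and CLDN4 none without the uneven zones. No paired analysis was possible because each group has 1 array and no result comes from a test, so leaving out a replicate was not possible either. Signals from 5 to 15, as for MUC2, had a single-spot SD of 0.63, which limits what dim probes can show.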
